A study of Mus musculus with 8 samples.

Results

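Lung branching and growth depend on short-range signals between the epithelial tube and the mesenchyme around it. The gene set described here holds 10 of these genes: the ligands Wnt2, Wnt7b, Fgf10, Shh and Bmp4, the receptors Fgfr2, Ptch1 and Pdgfra, and the mesenchymal transcription factors Tbx4 and Foxf1. Every probe whose platform annotation carries 1 of these symbols was taken, which gave 16 probes of the 25697 on the array. All 16 passed the detection filter, alongside 14965 probes in all, and 14 of them were detected on all 8 arrays. Wnt2, Ptch1, Bmp4, Pdgfra, Tbx4 and Foxf1 had 1 probe each, and the other 4 genes had several.

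The RNA came from lungs of mouse embryos at E18.5, strain c57Bl6/J. There were 4 groups. The mRID PTU group carried SMRTmRID, a mutation named so in the labels, and the mothers ate 0.15% PTU for 2 days, starting at E16.5. The WT PTU group was wild type with the same diet. The mRID control group carried the mutation and the WT control group was wild type, both with mothers on control chow. SMRT is a corepressor that nuclear receptors recruit through its receptor interaction domains (RID), and PTU (propylthiouracil) blocks thyroid hormone synthesis. The labels name the 2 arrays of a group technical replicates, so each group is 1 RNA sample, and the number of embryos behind it is not stated in the labels. The p-values below therefore cover array error and no spread between animals.

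In the developing lung, Fgf10 from the distal mesenchyme acts on the receptor Fgfr2 of the epithelium and draws out new buds. Shh from the epithelium binds Ptch1 on mesenchymal cells, which relieves the block on Smo, and restrains Fgf10. Wnt2 is made by the mesenchyme and Wnt7b by the epithelium, and both act through beta-catenin on lung progenitors and growth. Bmp4 marks the distal bud tips. Pdgfra is the receptor of mesenchymal cells, including the precursors of alveolar myofibroblasts, for ligands such as Pdgfa. Tbx4 and Foxf1 are transcription factors of the lung mesenchyme, Foxf1 also of its endothelium.

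The promoter sequences of 3 genes whose PTU difference differed between the genotypes are shown, because that difference was lower in mRID for Wnt2 and Fgf10 and higher in mRID for Tbx4. Each runs 5′ to 3′ on the gene's own strand and covers 250 bases before and 50 bases after the gene start in RefSeq, build GRCm38.p6. The Wnt2 window lies at chr6:18030396-18030695 on the minus strand, the Fgf10 window at chr13:118714449-118714748 on the plus strand and the Tbx4 window at chr11:85896515-85896814 on the plus strand. Capitals mark the GATA core.
Wnt2: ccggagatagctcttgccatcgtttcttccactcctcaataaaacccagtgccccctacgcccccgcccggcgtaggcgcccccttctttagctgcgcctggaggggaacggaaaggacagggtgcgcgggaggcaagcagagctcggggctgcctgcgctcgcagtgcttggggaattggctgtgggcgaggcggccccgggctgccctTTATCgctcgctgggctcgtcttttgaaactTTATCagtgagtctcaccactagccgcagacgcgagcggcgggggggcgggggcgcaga
Fgf10: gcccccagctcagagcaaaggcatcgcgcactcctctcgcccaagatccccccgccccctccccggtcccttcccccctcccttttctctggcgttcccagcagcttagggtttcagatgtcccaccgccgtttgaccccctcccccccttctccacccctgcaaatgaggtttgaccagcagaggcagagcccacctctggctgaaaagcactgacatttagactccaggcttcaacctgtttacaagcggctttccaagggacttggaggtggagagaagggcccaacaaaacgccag
Tbx4: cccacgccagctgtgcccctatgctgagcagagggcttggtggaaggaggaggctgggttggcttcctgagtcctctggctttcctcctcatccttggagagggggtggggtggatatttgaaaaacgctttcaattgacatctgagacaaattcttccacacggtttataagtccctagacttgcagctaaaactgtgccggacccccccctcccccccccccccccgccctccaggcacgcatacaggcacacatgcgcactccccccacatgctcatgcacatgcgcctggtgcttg
RefSeq promoter sequences were matched for 7 of the 10 genes, and Wnt7b, Shh and Foxf1 are named only. In the 7 windows 3 short motifs were searched on both strands, chosen with the sequences in view: the nuclear receptor half-site AGGTCA, the TCF core CTTTGA and the GATA core GATAA. They do not overlap each other's letters in these windows. The Wnt2 window held the GATA core 2 times, both on the opposite strand, where it reads as ttatc on the printed strand, starting 40 and 9 bases before the gene start. The Fgfr2 window held it 1 time, starting 8 bases after the gene start. The other 5 windows held none of the 3 motifs. Among 32851 mouse promoter windows of the same length, 25.4% held GATAA, 5340 (16.3%) held AGGTCA and 5257 held CTTTGA, so each is common. A match describes letters and not a bound site.

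Signals are background-corrected, quantile-normalized intensities on the log2 scale, and levels were not set against each other between probes. Groups were compared by limma across all 14965 kept probes. To pass, a probe needed both an adjusted p (Benjamini-Hochberg) under 0.05 and a fold of 1.5 or more. Differences are on the log2 scale, each with its standard error (SE). The genotype by PTU term is the PTU difference in mRID minus that in WT, and a negative term means that the PTU difference was lower in mRID. Bulk lung RNA cannot tell fewer cells of a type from less RNA per cell.

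The arrays were even in quality. Mean raw signals ran from 294 to 376 and 54.7% to 58.8% of probes were detected. Arrays of a group correlated at 0.996 over kept probes, against 0.988 to 0.994 between groups. Paired arrays of the same RNA differed with a median SD of 0.0741 log2 units. Of 13 lung epithelium markers 12 had a kept probe, with a summed linear signal of 29506 to 29603 on the mRID PTU arrays, 28668 to 29766 on the WT PTU arrays, 29176 to 30135 on the mRID control arrays and 28534 to 28864 on the WT control arrays. The labelled tissue thus carried its epithelial markers in each group.

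Among the 10 genes, Wnt2 showed the widest range between groups of the probes detected on all 8 arrays. Its lowest group was WT control, and the mutation without PTU and PTU without the mutation each went with a higher signal. The Wnt2 probe ILMN_1258734 read 10.59 and 10.65 on the mRID PTU arrays, 10.64 and 10.78 on the WT PTU arrays, 10.52 and 10.39 on the mRID control arrays, and 9.92 and 9.78 on the WT control arrays. The WT control arrays lay below all 6 others, and the mRID PTU and WT PTU arrays overlapped.

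**Figure D1:**
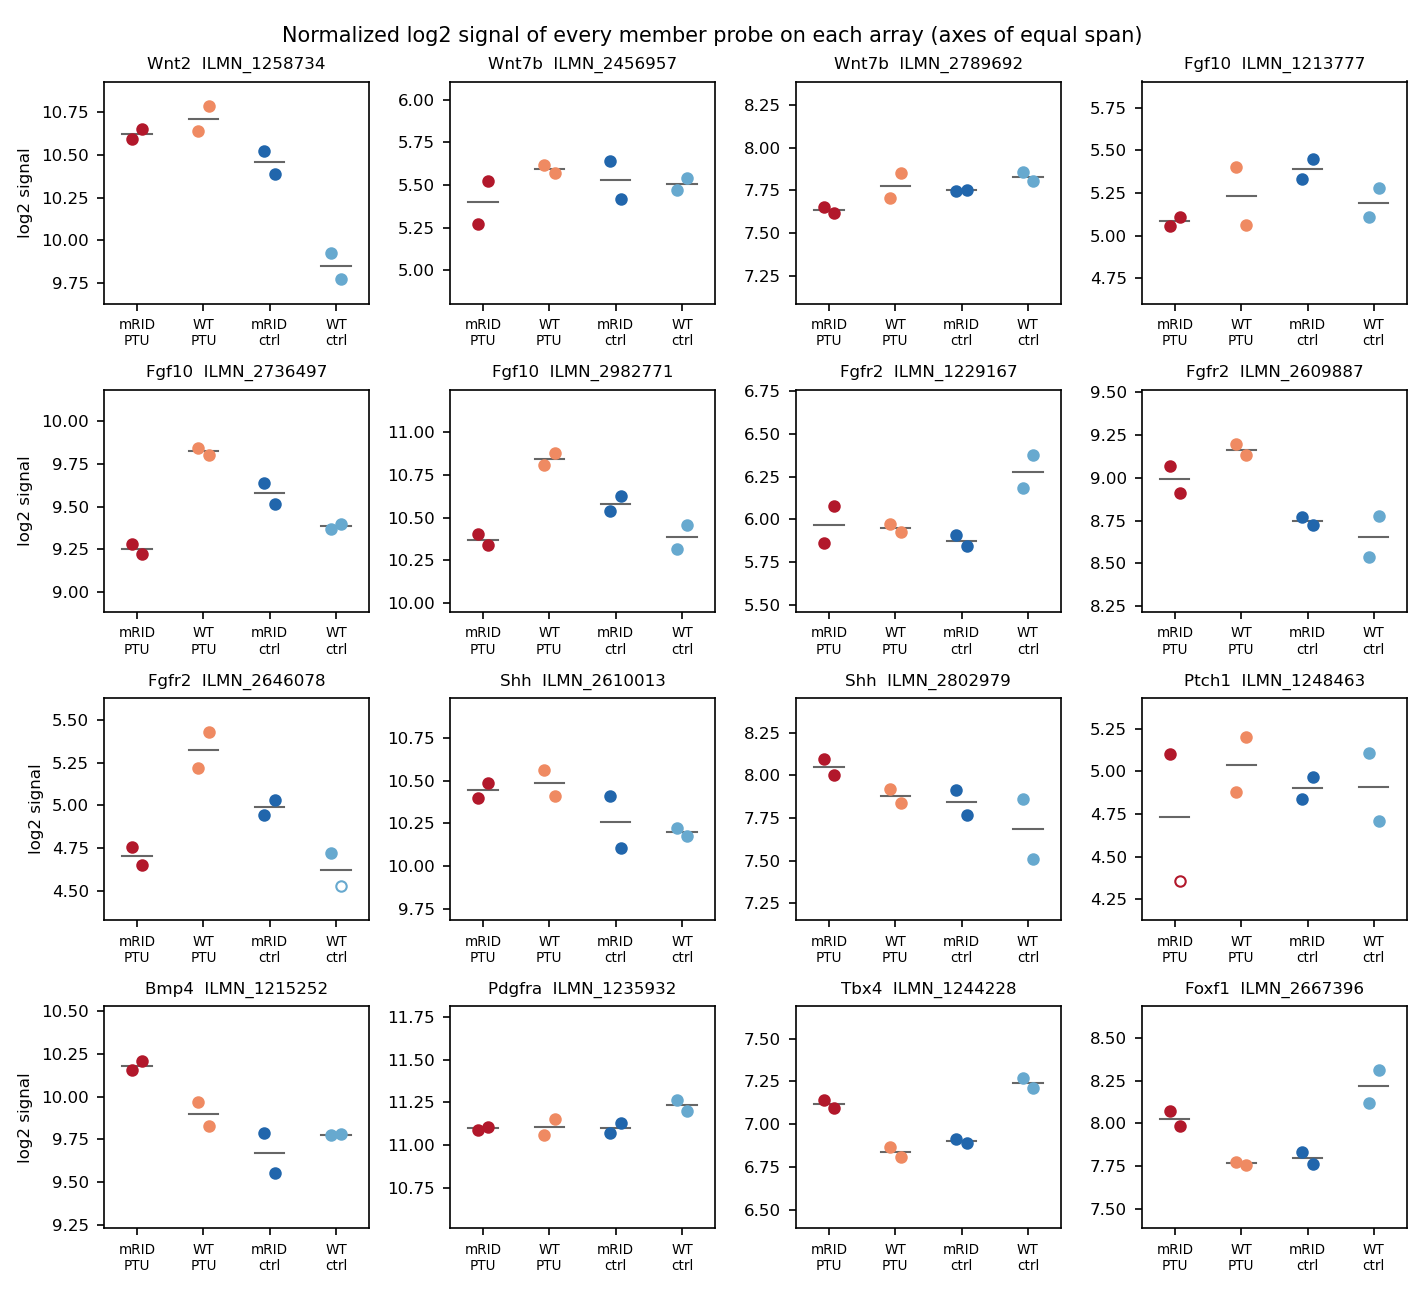
Log2 signal of each of the 16 probes on the 8 arrays, with the mRID PTU, WT PTU, mRID control and WT control groups placed left to right. Filled points were detected, open points were not, lines are group means, and every axis spans the same number of log2 units; Wnt2 is lowest in WT control, while Tbx4 and Foxf1 are highest there.

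Wnt2 was higher in mRID control than in WT control by 0.61 (SE 0.10, 1.52-fold, adjusted p = 0.0085 by limma). PTU in WT went with a larger rise, 0.86 in WT PTU over WT control (SE 0.10, 1.82-fold, adjusted p = 0.000393). These 2 comparisons share the WT control arrays. Within mRID the PTU difference was 0.17 (adjusted p = 0.327), and mRID PTU differed from WT PTU by -0.09 (adjusted p = 0.627). The genotype by PTU term was -0.69 (SE 0.14, adjusted p = 0.00883), so the 2 PTU differences differed beyond array error. Without WT control array B the mRID control difference was 0.53 and without mRID control array A it was 0.54, and neither passed the threshold of 1.5-fold.

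Squamous epithelium and heart muscle markers were highest in the WT control group, while skeletal muscle markers were highest in mRID PTU. The summed linear signal of 7 squamous epithelium markers was 365 to 398 on the mRID PTU arrays, 555 to 563 on the WT PTU arrays, 397 to 420 on the mRID control arrays and 1173 to 1271 on the WT control arrays. For 7 heart muscle markers it was 1240 to 1302 on the mRID PTU arrays, 1064 to 1140 on the WT PTU arrays, 2154 to 2165 on the mRID control arrays and 4064 to 4284 on the WT control arrays. Among the squamous markers, Krt13 and Trp63 were detected on no mRID PTU array, Krt4, Krt13, Krt14, Trp63 and Psca on no WT PTU array and Trp63 on no mRID control array. The squamous list was not uniform. Lor, a protein of the cornified envelope, was higher in WT PTU than in WT control (1.38, 2.61-fold, adjusted p = 2.18e-05 by limma), where the other 6 were lower. Both sums were highest where Wnt2 was lowest, and their part in the Wnt2 differences was not tested.

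Wnt7b, the epithelial ligand, passed no comparison on either of its 2 probes. The brighter probe ILMN_2789692 read 7.65 and 7.62 on the mRID PTU arrays, 7.71 and 7.85 on the WT PTU arrays, 7.75 and 7.75 on the mRID control arrays, and 7.86 and 7.81 on the WT control arrays. The mRID PTU arrays were lowest, and WT PTU overlapped both groups on control chow. Its 4 differences ran between -0.14 and -0.05. The dimmer probe ILMN_2456957 ranged between 5.27 and 5.64, and its largest difference was -0.20 for mRID PTU against WT PTU (adjusted p = 0.303).

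Fgf10, the mesenchymal ligand that drives budding, was highest in WT PTU on its 2 bright probes. Its mean was lowest in mRID PTU on both, with arrays below all others on 1 of them. Probe ILMN_2736497 read 9.28 and 9.22 on the mRID PTU arrays, 9.84 and 9.80 on the WT PTU arrays, 9.64 and 9.52 on the mRID control arrays, and 9.37 and 9.40 on the WT control arrays. No groups overlapped on this probe, and the order was WT PTU, mRID control, WT control, mRID PTU. Probe ILMN_2982771 read 10.40 and 10.34 on the mRID PTU arrays, 10.81 and 10.88 on the WT PTU arrays, 10.54 and 10.63 on the mRID control arrays, and 10.32 and 10.46 on the WT control arrays. It kept that order, with mRID PTU and WT control overlapping.

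The Fgf10 PTU difference had opposite signs in the 2 genotypes on both bright probes. On ILMN_2736497 it was -0.33 in mRID (adjusted p = 0.0412) and 0.44 in WT (adjusted p = 0.0115), both short of 1.5-fold. The term on that probe was -0.76 (SE 0.12, adjusted p = 0.0029). With PTU, mRID was below WT by 0.57 on the log2 scale (1.49-fold, adjusted p = 0.00178), just short of the fold threshold. That difference was -0.60 without mRID PTU array A and -0.59 without WT PTU array B, and passed in both. On ILMN_2982771 the PTU difference was -0.21 in mRID and 0.46 in WT, and the term was -0.67 (SE 0.13, adjusted p = 0.00741). The remaining, dim probe ILMN_1213777 read 5.06 and 5.11 on the mRID PTU arrays, 5.40 and 5.06 on the WT PTU arrays, 5.33 and 5.45 on the mRID control arrays, and 5.11 and 5.28 on the WT control arrays. Its term was -0.34 (SE 0.17, adjusted p = 0.206), so it shared the sign and did not pass.

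**Figure D2:**
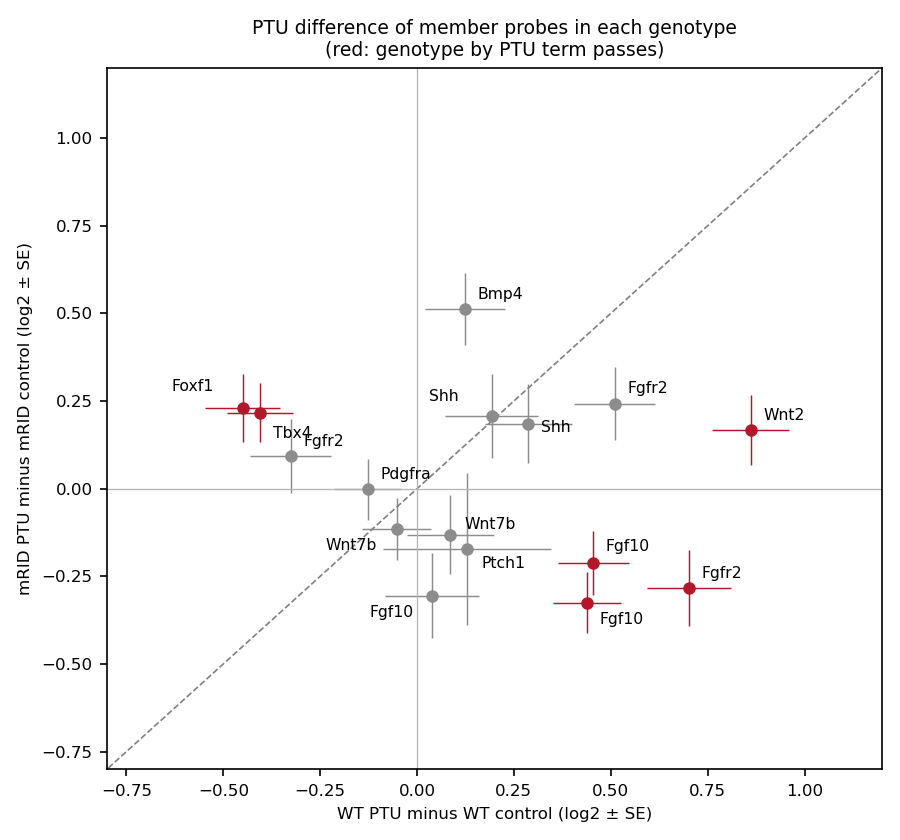
PTU difference in mRID (vertical axis) against the PTU difference in WT (horizontal axis), both log2, for the 16 probes, with bars of 1 SE and red points where the genotype by PTU term passed. Points on the dashed diagonal would have equal differences; Wnt2, the bright Fgf10 probes and Fgfr2 ILMN_2646078 lie below it, and Tbx4 and Foxf1 above it.

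Shh, the epithelial hedgehog ligand, passed no comparison. Probe ILMN_2610013 read 10.40 and 10.49 on the mRID PTU arrays, 10.56 and 10.41 on the WT PTU arrays, 10.41 and 10.11 on the mRID control arrays, and 10.22 and 10.17 on the WT control arrays. The largest of its 4 differences was 0.29 for WT PTU against WT control (SE 0.11, adjusted p = 0.141). The groups on PTU were at or above those on control chow, with overlap. Probe ILMN_2802979 ranged between 7.51 and 8.10, its 4 differences ran between 0.16 and 0.21, and its term was 0.01 (adjusted p = 0.965).

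Bmp4, the ligand of the bud tips, was highest in mRID PTU. It read 10.16 and 10.21 on the mRID PTU arrays, 9.97 and 9.83 on the WT PTU arrays, 9.79 and 9.55 on the mRID control arrays, and 9.77 and 9.78 on the WT control arrays. The mRID PTU arrays lay above all others, and the 2 groups on control chow overlapped. Within mRID the PTU difference was 0.51 (SE 0.10, 1.43-fold, adjusted p = 0.0109), short of the fold threshold. In WT it was 0.12 (adjusted p = 0.497), and the term of 0.39 did not pass (SE 0.14, adjusted p = 0.102). Without mRID control array A the mRID difference was 0.63 and passed.

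Fgfr2, the receptor that reads Fgf10, had 3 probes that disagreed. The brightest, ILMN_2609887, read 9.07 and 8.91 on the mRID PTU arrays, 9.20 and 9.13 on the WT PTU arrays, 8.77 and 8.73 on the mRID control arrays, and 8.53 and 8.77 on the WT control arrays. The groups on PTU lay above those on control chow. The PTU difference on that probe was 0.24 in mRID (adjusted p = 0.18) and 0.51 in WT (1.42-fold, adjusted p = 0.0131), short of the threshold, and the term was -0.27 (adjusted p = 0.256). Without WT control array B the WT difference was 0.63 and passed.

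The dimmest Fgfr2 probe passed 3 tests. ILMN_2646078 read 4.75 and 4.65 on the mRID PTU arrays, 5.22 and 5.43 on the WT PTU arrays, 4.94 and 5.03 on the mRID control arrays, and 4.72 and 4.53 on the WT control arrays. It was not detected on WT control array B, and the lowest signal of any detected probe lay between 4.54 and 4.69 on the arrays, so this probe sat near the limit of detection. It was lower in mRID PTU than in WT PTU by 0.62 on the log2 scale (a difference of -0.62, SE 0.11, 1.54-fold, adjusted p = 0.00394). It was higher in WT PTU than in WT control by 0.70 (SE 0.11, 1.63-fold, adjusted p = 0.00249), and the term was -0.98 (SE 0.15, adjusted p = 0.00223). Without WT PTU array B the mRID PTU difference from WT PTU was -0.51 and without mRID PTU array B it was -0.56, and neither passed. Both calls were also lost in 4 of 8 processing settings. The mRID PTU difference from WT PTU was -0.40 on the authors' processed values, -0.38 with no background correction and -0.30 with an offset of 50, and the WT PTU difference from WT control was 0.45, 0.43 and 0.34 in these settings. The other dim probe, ILMN_1229167, is annotated to another RefSeq transcript and had the opposite sign in WT. It read 5.86 and 6.07 on the mRID PTU arrays, 5.97 and 5.93 on the WT PTU arrays, 5.91 and 5.84 on the mRID control arrays, and 6.18 and 6.37 on the WT control arrays. Its PTU difference in WT was -0.33 (adjusted p = 0.08) and its term 0.42 (adjusted p = 0.087), with the WT control arrays above all others.

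Ptch1, the Shh receptor and a target of its pathway, was close to the limit of detection. It read 5.10 and 4.36 on the mRID PTU arrays, 4.88 and 5.20 on the WT PTU arrays, 4.84 and 4.97 on the mRID control arrays, and 5.11 and 4.71 on the WT control arrays, and mRID PTU array B was not detected. The SD between arrays reached 0.53 in mRID PTU, and all groups overlapped. With an SE of 0.22, its 4 differences ran between -0.31 and 0.13 and none passed.

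Pdgfra was the steadiest member. It read 11.09 and 11.10 on the mRID PTU arrays, 11.06 and 11.15 on the WT PTU arrays, 11.07 and 11.13 on the mRID control arrays, and 11.27 and 11.20 on the WT control arrays. The WT control arrays were highest by a small margin and the other 3 groups overlapped. Its largest differences were -0.13, for mRID control and for WT PTU against WT control, and its term was 0.13 (adjusted p = 0.533).

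Tbx4 and Foxf1 had the reverse layout of Fgf10, high in mRID PTU and WT control and low in WT PTU and mRID control. Tbx4 read 7.14 and 7.10 on the mRID PTU arrays, 6.87 and 6.81 on the WT PTU arrays, 6.91 and 6.89 on the mRID control arrays, and 7.27 and 7.21 on the WT control arrays. The order was WT control, mRID PTU, mRID control, WT PTU, with no overlap between groups. Foxf1 read 8.07 and 7.98 on the mRID PTU arrays, 7.77 and 7.76 on the WT PTU arrays, 7.84 and 7.76 on the mRID control arrays, and 8.12 and 8.31 on the WT control arrays. It had the same order, with mRID control and WT PTU overlapping.

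The PTU difference of Tbx4 was 0.22 in mRID (adjusted p = 0.14) and -0.40 in WT (1.32-fold, adjusted p = 0.0141), and its term was 0.62 (SE 0.12, adjusted p = 0.00703). That of Foxf1 was 0.23 in mRID (adjusted p = 0.165) and -0.45 in WT (1.37-fold, adjusted p = 0.0156), and its term was 0.68 (SE 0.14, adjusted p = 0.0083). No single comparison of 2 groups reached 1.5-fold for either gene. On control chow Foxf1 was lower in mRID by 0.42 on the log2 scale (adjusted p = 0.041), and Tbx4 lower by 0.34 (adjusted p = 0.0549), neither passing. The Foxf1 term was 0.58 and did not pass without WT control array B. The Tbx4 term was 0.49 to 0.54, short of 1.5-fold, with an offset of 50, with no background correction and on the authors' processed values.

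The summed signals of 5 marker lists had the same layout as these 2 factors. The summed signal of 6 smooth muscle markers was 15420 to 16161 on the mRID PTU arrays, 12372 to 12733 on the WT PTU arrays, 12749 to 12771 on the mRID control arrays and 15193 to 15394 on the WT control arrays. For 9 endothelium markers it was 20995 to 21450 on the mRID PTU arrays, 18802 to 18981 on the WT PTU arrays, 18938 to 19850 on the mRID control arrays and 21211 to 22298 on the WT control arrays. For 5 mesothelium markers it was 3284 to 3646 on the mRID PTU arrays, 2106 to 2272 on the WT PTU arrays, 2625 to 2661 on the mRID control arrays and 3393 to 3568 on the WT control arrays. The 5 leukocyte markers summed to 8913 to 9828 on the mRID PTU arrays, 7574 to 7780 on the WT PTU arrays, 7519 to 8432 on the mRID control arrays and 9302 to 9443 on the WT control arrays. The 6 skeletal muscle markers summed to 263 to 275 on the mRID PTU arrays, 80.4 to 80.7 on the WT PTU arrays, 108 to 127 on the mRID control arrays and 157 to 159 on the WT control arrays, with Tnnt3 detected on no mRID control array. In each of the 5 sums the high groups were mRID PTU and WT control, with skeletal muscle highest in mRID PTU. Brighter genes weigh more in a sum, and single genes did not all follow. In mRID PTU against WT PTU, 9 of 9 endothelium, 4 of 6 smooth muscle and 4 of 5 mesothelium markers were positive. So were 5 of 6 skeletal muscle and 2 of 5 leukocyte markers. In WT PTU against WT control 9 endothelium, 6 smooth muscle, 4 mesothelium, 5 skeletal muscle and 2 leukocyte markers were negative. In mRID control against WT control 9 of 9 endothelium, 6 of 6 smooth muscle and 3 of 5 mesothelium markers were negative. So were 6 of 6 skeletal muscle and 5 of 5 leukocyte markers. In mRID PTU against mRID control 7 of 9 endothelium, 3 of 6 smooth muscle and 4 of 5 mesothelium markers were positive. So were 4 of 6 skeletal muscle and 5 of 5 leukocyte markers. The part of these lists in the Tbx4 and Foxf1 differences was not tested. The summed signal of 12 fibroblast markers was lowest in mRID control and overlapped among the other 3 groups, at 38054 to 38492 on the mRID PTU arrays, 36358 to 38770 on the WT PTU arrays, 33469 to 36340 on the mRID control arrays and 37354 to 39072 on the WT control arrays. Single fibroblast markers went in opposite directions. Col1a2 was higher in mRID PTU, by 1.00 over WT PTU and by 1.16 over mRID control. Lum was lower in mRID PTU than in WT PTU (-1.24) and in mRID control (-1.46). Against WT control, Lum was lower in WT PTU (-1.19) and in mRID control (-0.98), and Dcn was lower in WT PTU (-0.86).

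**Figure D3:**
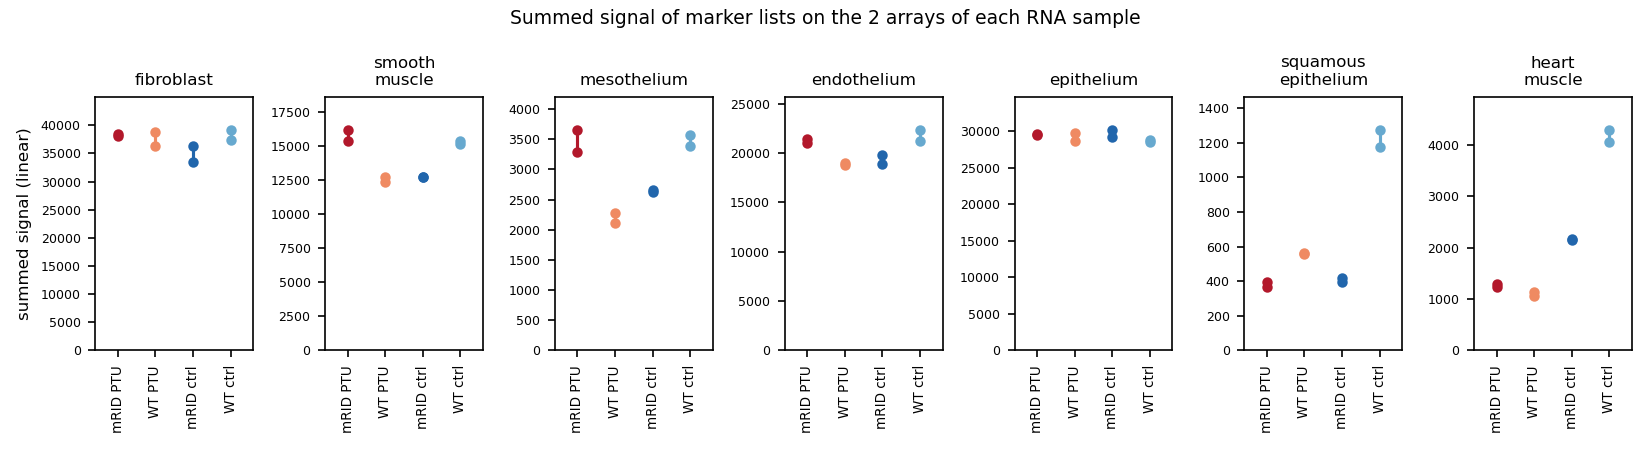
Summed linear signal (vertical axis, starting at 0) of 7 marker lists on the 2 arrays of the mRID PTU, WT PTU, mRID control and WT control groups, with a line joining the arrays of a group. Smooth muscle, endothelium and mesothelium markers are high in mRID PTU and WT control, and squamous and heart markers are highest in WT control.

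Counted over the 16 probes, few passed in any comparison of 2 groups. In mRID control against WT control 1 probe was higher and 0 lower, where 1.44% of all 14965 kept probes passed (0.448% higher, 0.989% lower). In mRID PTU against WT PTU 0 were higher and 1 lower, against 4.46% of all probes (3.82% higher, 0.635% lower). In WT PTU against WT control 2 were higher and 0 lower, against 3.33% (1.02% higher, 2.31% lower). In mRID PTU against mRID control 0 passed, against 3.67% (2.88% higher, 0.789% lower). By the adjusted p alone, 2 of the 16 were under 0.05 in mRID control against WT control (3.82% of all probes), 3 in mRID PTU against WT PTU (11.8%), 7 in WT PTU against WT control (9.89%) and 2 in mRID PTU against mRID control (10.3%). The arrays did not overlap for 10 of the 16 in mRID control against WT control (48.9% of all probes), 10 in mRID PTU against WT PTU (56.4%), 12 in WT PTU against WT control (54.7%) and 11 in mRID PTU against mRID control (54.4%), so such separation was common. The genotype by PTU term passed for 6 of the 16 probes, against 9.54% of all probes. Of these 6 terms 2 were positive (Tbx4, Foxf1) and 4 negative (Wnt2, Fgf10 on 2 probes, Fgfr2 on 1), against 6.30% of all probes with a passing positive term and 3.23% with a passing negative one. By any probe they came from 5 of the 10 genes. With the best-lit probe per gene, the term passed for 4 of the 10 genes, against 9.33% of all genes. The median term was -0.16 over the 16 probes and -0.03 over all probes.

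**Figure D4:**
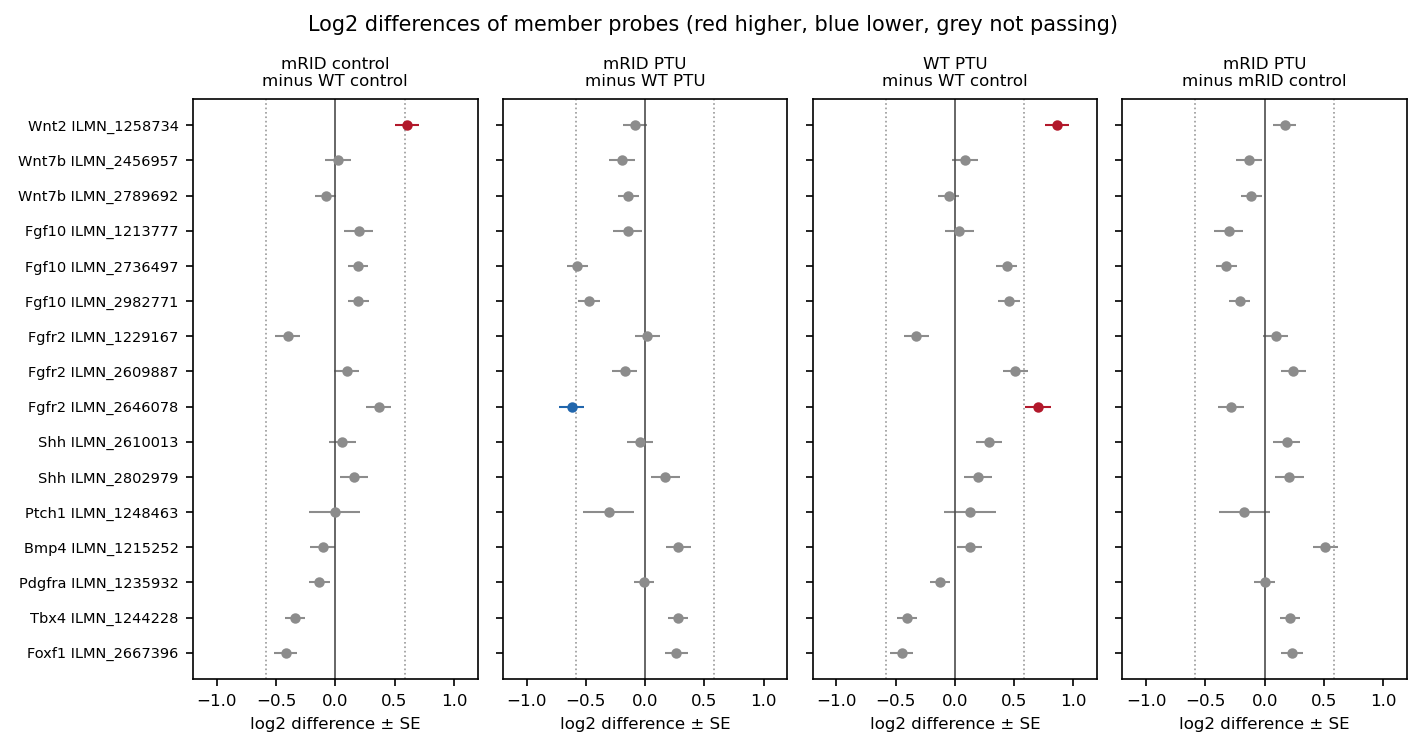
Log2 differences of the 16 probes in the 4 comparisons of 2 groups, with bars of 1 SE. Red points passed as higher, blue as lower, grey did not pass, and dotted lines mark 1.5-fold. Wnt2 passes in mRID control against WT control and in WT PTU against WT control, and Fgfr2 ILMN_2646078 in mRID PTU against WT PTU and in WT PTU against WT control.

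Genotype and PTU were also fitted over the 4 RNA samples, each entered as the mean of its arrays, with 1 residual degree of freedom. With 1 RNA sample per group, that residual is the genotype by PTU contrast. It holds no spread between RNA samples of the same group, so this fit is no test against the spread between animals. No probe of the 14965 passed for either factor in limma, and 359 (2.40%) and 479 (3.20%) had an unadjusted p under 0.05 for genotype and for PTU. The members closest to the threshold were Wnt2, with a PTU difference of 0.51 (SE 0.19, unadjusted p = 0.028, adjusted p = 0.999), and Fgfr2 ILMN_2609887, with 0.38 (unadjusted p = 0.038).

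The other genes of each pathway were read from lists, with the best-lit kept probe standing for a gene. Of 60 further Wnt pathway genes 39 had a kept probe, and 1 passed in mRID control against WT control (1.57% of all genes), 1 in mRID PTU against WT PTU (4.16%), 1 in WT PTU against WT control (3.52%), 0 in mRID PTU against mRID control (3.32%) and 3 in the term (9.33%). Fzd10, a Wnt receptor, was higher in mRID control than in WT control by 0.63 (SE 0.10, 1.55-fold, adjusted p = 0.00587). Sfrp2, a secreted modulator of Wnt signals, was highest in WT PTU, as Fgf10 was. It read 8.07 and 8.0 on the mRID PTU arrays, 8.76 and 8.76 on the WT PTU arrays, 7.95 and 8.03 on the mRID control arrays, and 8.04 and 7.94 on the WT control arrays. Only the WT PTU arrays stood apart, and Sfrp2 was lower in mRID PTU than in WT PTU (-0.72, 1.65-fold, adjusted p = 0.000403) and higher in WT PTU than in WT control (0.77, 1.7-fold, adjusted p = 0.00039). Rspo2, a secreted enhancer of Wnt signals, had a term of -0.74 (adjusted p = 0.00426) but was detected on no mRID PTU array and on 1 of 2 WT control arrays. Gsk3b, a kinase that marks beta-catenin for breakdown, had a term of 0.59 (adjusted p = 0.0174).

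Of 26 Fgf pathway genes 16 had a kept probe. In mRID PTU against WT PTU 1 was higher and 0 lower (3.50% and 0.660% of all genes), and in WT PTU against WT control 1 was higher and 1 lower (1.10% and 2.43%). In mRID control against WT control 0 passed (1.57% of all genes), as in mRID PTU against mRID control (3.32%). The term was positive and passing for 1 and negative and passing for 1, where 9.33% of all genes had a passing term. Sox9, a transcription factor of the distal epithelium that depends on Fgf signals, was higher in WT PTU than in WT control by 0.77 (SE 0.10, 1.71-fold, adjusted p = 0.00081), and its term was -0.67 (adjusted p = 0.0109). Sox9 read 7.66 and 7.43 on the mRID PTU arrays, 7.70 and 7.71 on the WT PTU arrays, 7.48 and 7.40 on the mRID control arrays, and 6.90 and 6.97 on the WT control arrays. As for Wnt2, the WT control arrays were lowest. Flrt3, a membrane protein that binds Fgf receptors, ran the other way: it was higher in mRID PTU than in WT PTU (0.84, 1.79-fold, adjusted p = 0.000332) and lower in WT PTU than in WT control (-0.65, 1.57-fold, adjusted p = 0.00242). No other Fgf list gene passed in the 4 comparisons of 2 groups or the term, the feedback genes Spry2, Spry4, Etv4, Etv5 and Dusp6 among them. Genes of the list without a kept probe could not pass.

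Of 21 hedgehog pathway genes 9 had a kept probe, of which 1 was higher in mRID PTU than in WT PTU (3.50% of all genes) and 1 was lower in WT PTU than in WT control (2.43%). In mRID control against WT control 0 passed (1.57% of all genes), as in mRID PTU against mRID control (3.32%). The term passed for 1, where 9.33% of all genes had a passing term. Hhip, which binds hedgehog ligands and is induced by them, was higher in mRID PTU than in WT PTU by 0.66 (SE 0.09, 1.58-fold, adjusted p = 0.000791), with a term of 0.81 (SE 0.13, adjusted p = 0.00244). Hhip read 9.94 and 9.92 on the mRID PTU arrays, 9.26 and 9.27 on the WT PTU arrays, 9.52 and 9.65 on the mRID control arrays, and 9.67 and 9.78 on the WT control arrays. The WT PTU arrays were lowest and the mRID PTU arrays highest. Dhh, another hedgehog ligand, was lower in WT PTU than in WT control (-0.87, 1.83-fold, adjusted p = 0.000321). Shh itself passed in none of these.

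Of 38 Bmp pathway genes 26 had a kept probe. In mRID PTU against WT PTU 1 was higher (3.50% of all genes), in WT PTU against WT control 1 was lower (2.43%), and in mRID PTU against mRID control 1 was higher (2.51%). In mRID control against WT control 0 passed (1.57% of all genes), and 3 had a passing term, all positive, where 9.33% of all genes had a passing term. Gdf10, a ligand of the same family, was higher in mRID PTU than in WT PTU (0.68, 1.6-fold, adjusted p = 0.0026) and lower in WT PTU than in WT control (-0.81, 1.76-fold, adjusted p = 0.00113), with a term of 1.01 (adjusted p = 0.00218). Bmp6, another ligand, was higher in mRID PTU than in mRID control by 0.59 (1.51-fold, adjusted p = 0.00349), where Bmp4 differed by 0.51. Acvr2a, a receptor, passed in the term alone (0.65, adjusted p = 0.0327). Of 6 Pdgf pathway genes 5 had a kept probe, and 0 passed in any comparison or in the term. Among all genes, 1.57% to 4.16% passed in a comparison of 2 groups and 9.33% in the term.

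Of the 6 pathway lists, the mesenchymal regulators held the largest differences. Of 30 listed transcription factors 27 had a kept probe, and 6 were higher and 0 lower in mRID PTU than in WT PTU, where 3.50% of all genes were higher and 0.660% lower. In mRID PTU against mRID control 4 were higher and 1 lower, against 2.51% higher and 0.816% lower of all genes. The lower one was Nr2f1, an orphan nuclear receptor (-0.62, 1.54-fold, adjusted p = 0.00177). The term passed for 7 of the 27, 5 positive and 2 negative, against 9.33% of all genes, and the negative ones were Nr2f1 (-0.59) and Foxp2 (-0.92), a forkhead factor of the lung epithelium. In WT PTU against WT control 0 were higher and 1 lower, against 1.10% and 2.43% of all genes. In mRID control against WT control 0 passed, where 1.57% of all genes did. The median difference of the list in mRID PTU against WT PTU was 0.13, and -0.04 over all genes. The list was chosen with earlier results of these data known, so its counts against all genes are a description and no test. It also holds factors of other cells, such as Foxp2 of the epithelium and Mef2c of muscle and endothelium.

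Zeb2, a zinc finger repressor of mesenchymal cells, read 10.29 and 10.22 on the mRID PTU arrays, 8.69 and 8.75 on the WT PTU arrays, 8.73 and 8.96 on the mRID control arrays, and 8.98 and 8.95 on the WT control arrays. The mRID PTU arrays alone stood apart, and the difference was 1.54 over WT PTU (2.9-fold, adjusted p = 8.45e-06) and 1.42 over mRID control (2.67-fold, adjusted p = 2.06e-05). Mef2c, a factor of muscle and endothelium, was higher in mRID PTU by 1.3 over WT PTU (2.46-fold, adjusted p = 1.42e-05) and by 0.96 over mRID control. Foxp1, a forkhead repressor of the lung, was higher in mRID PTU by 1.27 over WT PTU (2.4-fold, adjusted p = 2.41e-05) and by 0.83 over mRID control. Tbx3, a paralogue in the Tbx4 family, was higher in mRID PTU than in WT PTU by 0.96 (1.95-fold, adjusted p = 9.77e-05) and lower in WT PTU than in WT control (-0.76, 1.7-fold, adjusted p = 0.000655). Tbx3 read 10.30 and 10.43 on the mRID PTU arrays, 9.35 and 9.45 on the WT PTU arrays, 10.05 and 9.90 on the mRID control arrays, and 10.15 and 10.18 on the WT control arrays, which is lowest in WT PTU as Tbx4 was. Markers of other cells also differed in mRID PTU, in both directions. The skeletal muscle marker Acta1 was higher by 1.64 over WT PTU and by 1.63 over mRID control, and Myh8 by 2.03 and by 1.09. These 2 were the only ones of 6 skeletal muscle markers that passed over WT PTU. Against WT PTU, 4 of 5 mesothelium markers and the erythroid marker Alas2 were higher, where 3.50% of all genes were. Lower than in WT PTU were 4 of 6 erythroid markers (Hbb-y, Hba-x, Kel and Slc4a1), where 0.660% of all genes were. The fibroblast marker Lum was also lower in mRID PTU (-1.24 against WT PTU, -1.46 against mRID control). The part of these markers in the differences of these regulators was not tested.

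**Figure D5:**
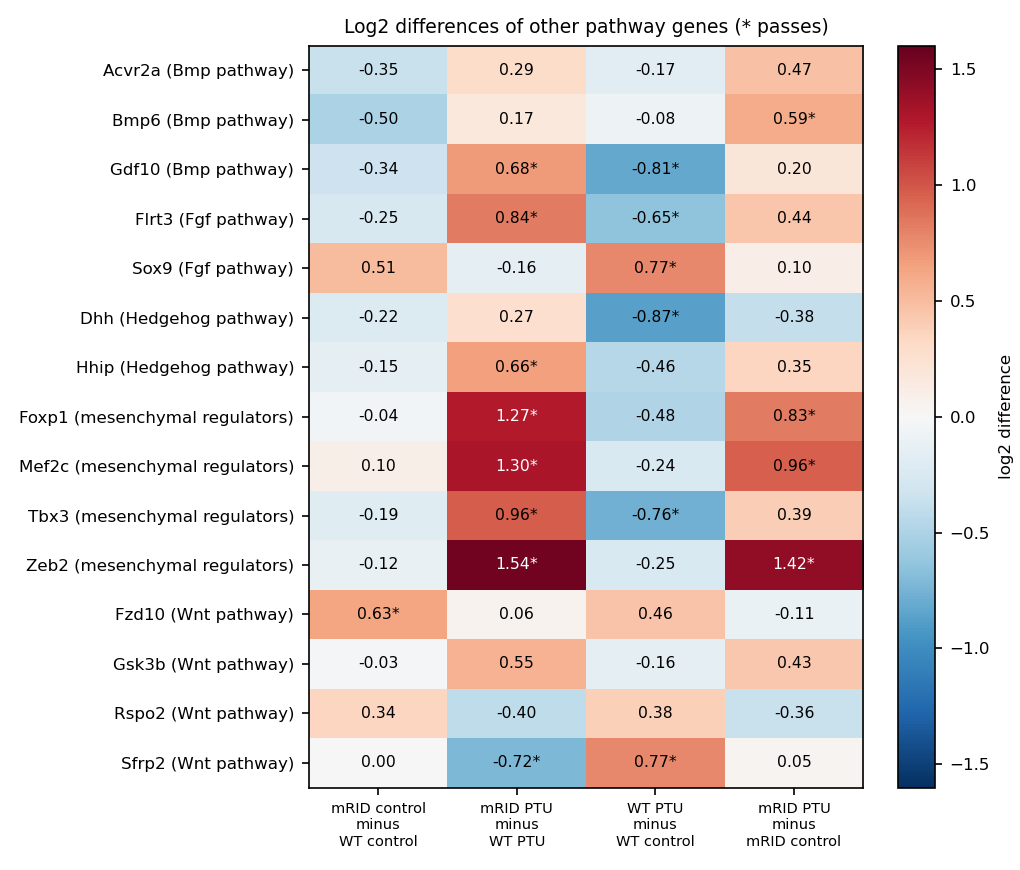
Log2 differences of the named pathway genes (rows) in the 4 comparisons of 2 groups (columns), with the value in each cell, a colour scale in log2 units and a star where the gene passed. Zeb2, Mef2c, Foxp1 and Tbx3 are positive in mRID PTU against WT PTU, and Sfrp2 is negative there.

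The genes whose 4 group means lay closest to those of a member were named by the root mean square distance between centred log2 means, over 4 groups that share the same arrays. For Wnt2, whose own means spread by 0.336 on that measure, they were Sox9 (0.0585), Chil1 (0.0613) and Dlgap5 (0.0799). For Fgf10 ILMN_2736497, with a spread of 0.215, they were Mapk12 (0.00585), Fbln1 (0.00807) and Epop (0.0146), and for Fgf10 ILMN_2982771 Zcwpw1 (0.0111), Plscr3 (0.0183) and Rims3 (0.0195). For Fgfr2 ILMN_2646078 they were Smyd5 (0.0513), Igdcc4 (0.0515) and Prr36 (0.0534). Nfatc1 (0.0117), Akr1c14 (0.0141) and Calhm5 (0.0170) were nearest to Tbx4, and Cdkn1a (0.00795), Zfp365 (0.0111) and Colgalt2 (0.0114) to Foxf1. Only 4 means were compared, the nearest were picked from 14965 probes, and how common such distances are was not counted. The distances are therefore a description.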

How the data were processed

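Lung RNA of 4 groups was measured on 8 Illumina arrays, 2 per group. Per the labels' protocols, Trizol-extracted RNA was treated with DNase, then copied to biotinylated cRNA. GenomeStudio is named in the submitters' processing notes, with no version. Per the file headers, the first deposited table holds an average signal per probe and array, a linear intensity not normalized between arrays, and a detection p-value. The deposited processed table holds linear intensity values with column medians of 52.3 to 52.4, and how the authors normalized them is not stated in the labels. It was used as an alternative.

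With limma 3.58.1 in R 4.3.3, normal-exponential background correction (noise from the detection p-values, offset 16) was followed by log2 and quantile normalization. The offset shrinks differences of dim probes. Kept were 14965 of 25697 probes, those with a detection p under 0.05 on each array of some group. Gene symbols came from the platform annotation, where 23978 probes had 1 symbol, 0 several and 1719 none. Gene identifiers of 23962 were in RefSeq's table for GRCm38.p6, and 0 symbols changed. A mean per group was fitted with lmFit and eBayes (4 residual degrees of freedom, prior 6.32), and the fit was tested on simulated data. The number of arrays limits the precision. Columns named by group and letter carry no replicate number, so arrays are named A and B.

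The members, pathway lists and marker lists were chosen with earlier results of these data known. List genes are named when they pass in a comparison or in the term, at most 4 per list by largest difference. For each member that passes, the 3 nearest profiles are named. Names of the feedback genes of the Fgf list, of Nr2f1 and Foxp2, and of single marker genes, were chosen after their values were seen. Alternatives were the authors' values, median scaling, no background correction, an offset of 50, a stricter detection filter, no fold threshold, the best-lit probe per gene, the replicate block and leaving out each array.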

Additional observations from a re-analysis of the deposited data

Results flagged for a closer look

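For 6 of the 16 probes the PTU difference itself differed between mRID and WT, by the genotype by PTU term of the limma fit over 14965 probes. The term compares 4 RNA samples, and array error is its only error. It was -0.69 for Wnt2, whose PTU difference was 0.17 in mRID and 0.86 in WT. It was -0.76 for Fgf10 ILMN_2736497 and -0.67 for Fgf10 ILMN_2982771, whose PTU differences were negative in mRID and positive in WT. It was -0.98 for Fgfr2 ILMN_2646078, a probe near the limit of detection. The other Fgfr2 probes had terms of opposite sign, -0.27 for ILMN_2609887 and 0.42 for ILMN_1229167, and neither passed. Tbx4 had a term of 0.62 and Foxf1 of 0.68, with PTU differences that were positive in mRID and negative in WT. The background for this term is 9.54% of all probes.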

How the results depend on the processing

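Comparisons are abbreviated here as G0 (mRID control minus WT control), G1 (mRID PTU minus WT PTU), P0 (WT PTU minus WT control), P1 (mRID PTU minus mRID control) and the term. Over all kept probes 215, 667, 499, 549 and 1427 passed. With no fold threshold the counts were 571, 1759, 1480, 1543 and 2167, and with an offset of 50 they were 98, 363, 279, 266 and 799. With no background correction 119 passed in G0, 443 in G1 and 337 in P1, and with the best-lit probe per gene 429 in G1 and 342 in P1. The authors' values gave 120 in G0 and 340 in P1, and the replicate block on those values gave the same counts, 120 and 340. Replicate numbers did not pair the samples: same-numbered deviations correlated at -0.061 to 0.117. Of the G0 calls 31.2% were higher, and 16.48% with median scaling, which moved the median of all probes to -0.07 there. Of the 16 member probes, 1 passed in G0, 1 in G1, 2 in P0, 0 in P1 and 6 in the term. With no fold threshold these were 2 in G0, 3 in G1, 7 in P0 and 2 in P1. The authors' values, with and without the replicate block, gave 0 in G0, 0 in G1 and 1 in P0. Median scaling gave 0 in G0 and 2 in G1. No background correction, the offset of 50 and the best-lit probe per gene each gave 0 in G1 and 1 in P0. In the term, the offset of 50 and the best-lit probe per gene gave 4. No background correction and the authors' values, with and without the replicate block, gave 5 there. Leaving out each array gave 0 to 1 in G0, 0 to 2 in G1 and 0 to 1 in P1. Over 4 RNA samples 0 probes passed in limma for either factor under the alternatives run. The terms of Wnt2, Fgf10 ILMN_2982771 and Fgf10 ILMN_2736497 passed in every setting run, and Foxf1's in all but without WT control array B. The Tbx4 term passed in 5 of 9 settings, and that of Fgfr2 ILMN_2646078 in 7 of 8. Its G1 and P0 differences each passed in 4 of 8. The Wnt2 G0 difference passed in 6 of 9 settings and was 0.50 with median scaling. The direction turned only for member values that pass in no setting. Median scaling gave Wnt7b ILMN_2456957 -0.0441, Fgfr2 ILMN_2609887 -0.0249 and Shh ILMN_2610013 -0.0473 in G0, and Wnt7b ILMN_2789692 0.0191 in the term. Pdgfra was 0.000497 in P1 by the authors' values, with and without the replicate block. Leaving out each array gave these ranges. G0: Wnt7b ILMN_2456957 -0.0910 to 0.13, Fgfr2 ILMN_2609887 -0.0251 to 0.21, Shh ILMN_2610013 -0.0920 to 0.21, Shh ILMN_2802979 -0.0188 to 0.33, Ptch1 -0.21 to 0.19 and Bmp4 -0.23 to 0.0108. G1: Fgf10 ILMN_1213777 -0.32 to 0.0233, Fgfr2 ILMN_1229167 -0.0886 to 0.13, Shh ILMN_2610013 -0.12 to 0.0327, Ptch1 -0.68 to 0.0617 and Pdgfra -0.0534 to 0.0393. P0: Wnt7b ILMN_2789692 -0.12 to 0.0194, Fgf10 ILMN_1213777 -0.13 to 0.21 and Ptch1 -0.0719 to 0.32. P1: Fgfr2 ILMN_1229167 -0.0136 to 0.20, Ptch1 -0.54 to 0.20 and Pdgfra -0.0318 to 0.0273. In the term, Wnt7b ILMN_2789692 ranged over -0.13 to 0.00912, Shh ILMN_2610013 over -0.25 to 0.0495, Shh ILMN_2802979 over -0.16 to 0.19 and Ptch1 over -0.67 to 0.0685. The cause of these changes was not tested. Ptch1 and Fgfr2 ILMN_2646078 lay near background, which limits both.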

Other observations

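The mesothelium markers, genes of the cell layer that covers the lung, had the layout of Tbx4 and Foxf1 in their summed signal. Single genes followed it in part: in mRID control against WT control 3 of the 5 were negative and 2 positive, and 0 passed. In mRID PTU against WT PTU 4 of the 5 were higher, against 3.50% of all genes: Upk3b by 0.95 (1.93-fold), Msln by 0.63 (1.54-fold), Upk1b by 0.62 (1.54-fold) and Lrrn4 by 1.13 (2.19-fold). In WT PTU against WT control Upk3b was lower (-0.85, adjusted p = 0.00028 by limma), as was Upk1b (-0.89, adjusted p = 0.00017). Wt1, the mesothelial transcription factor, had a term of -0.74 where the other 4 had positive terms of 0.84 to 1.34. Among smooth muscle markers, Actg2, an actin of visceral muscle, was lower in mRID control than in WT control (-0.77, adjusted p = 0.00164) and in WT PTU than in WT control (-0.97, adjusted p = 0.00012). Myh11, the smooth muscle myosin, was lower in WT PTU than in WT control (-0.61, adjusted p = 0.00514).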
